A study of Mus musculus with 20 samples.

Results

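The cornified envelope genes described here are 42 of the 51810 genes in the deposited count table. They were chosen by symbol alone: 21 Lce genes, 15 Sprr genes, and Ivl, Lor, Flg, Flg2, Krtdap and Sbsn. RNA was measured in medullary thymic epithelial cells (mTEC), the thymic stromal cells that display proteins of other tissues to developing T cells, sorted from mice of 4 to 5 weeks. The 12 libraries form 4 groups of 3 replicates: Trp53-cHyper mTEChi, Trp53-WT mTEChi, Trp53-cHyper mTEClo and Trp53-WT mTEClo. By convention mTEChi are the more mature cells and mTEClo the less mature ones. The labels do not say what cHyper stands for, which cells carry the allele, whether another transgene is shared by the groups, or which gates defined mTEChi and mTEClo. They also do not say whether replicates came from separate animals or pools, so each p-value measures the spread between libraries, which may be technical.

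The cornified envelope is the protein shell that replaces the plasma membrane of a keratinocyte as it becomes a dead, flat cell of the skin surface. Transglutaminases cross-link involucrin (Ivl) and loricrin (Lor) as scaffold and bulk proteins, small proline-rich proteins (Sprr) as bridges between them, and late cornified envelope proteins (Lce) in the last steps. Filaggrin (Flg) bundles keratin filaments inside the same cells. Most of these genes sit side by side in the epidermal differentiation complex, and in the medulla some mTEC are known to take on a keratinized, post-Aire fate.

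Libraries held 22.02 to 47.93 M counted fragments, and replicate 3 of every group was the shallow one (at most 25.31 M, where the others held 42.08 M or more). Levels are given as CPM, fragments scaled to library size after TMM, and comparisons of levels between genes use the deposited TPM, which is per length. Trp53 RNA stood at 134 ± 4.65 CPM in cHyper mTEChi and 101 ± 4.60 CPM in WT mTEChi, and at 166 ± 11.6 CPM in cHyper mTEClo and 137 ± 0.958 CPM in WT mTEClo (SD, n = 3 each). It was called higher in cHyper mTEChi (edgeR adjusted p = 0.0200) and not in cHyper mTEClo (adjusted p = 0.0553), while Cdkn1a, a p53 target, was called lower in cHyper in mTEChi (log2 -0.73) and in mTEClo (log2 -0.89). Mdm2, another p53 target, was not called in mTEChi (log2 -0.25, edgeR adjusted p = 0.192) or in mTEClo (log2 0.09, adjusted p = 0.576). Aire, the regulator that marks mature mTEC, had 1644 ± 321 CPM in cHyper mTEChi and 1919 ± 2.82 CPM in WT mTEChi, against 44.5 ± 6.46 CPM in cHyper mTEClo and 14.3 ± 2.60 CPM in WT mTEClo. It was higher in mTEChi than in mTEClo of either genotype, in the direction that the sort labels give.

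Shown here are 5 promoter windows, because the genes behind them differ in pattern: Sprr2i and Ivl were higher in mTEChi, while Sprr2a1 to Sprr2a3 were higher in mTEClo, and Krtdap differed between the genotypes in mTEClo. Each window is 300 bases of RefSeq sequence on GRCm38.p6, from 250 bases before the annotated start to 50 after it, printed 5′ to 3′ on the gene's strand. Capitals mark TATAAA and TGANTCA (the AP-1 letters), the motifs found among 3 searched on both strands, the other being GGGCGG. Windows were in the RefSeq table for 40 of the 42 genes, all but Lce1f and Sprr2g. The Sprr2a2 window has the same 300 letters as that of Sprr2a1.
Sprr2a1 (chr3:92215585-92215884, strand +): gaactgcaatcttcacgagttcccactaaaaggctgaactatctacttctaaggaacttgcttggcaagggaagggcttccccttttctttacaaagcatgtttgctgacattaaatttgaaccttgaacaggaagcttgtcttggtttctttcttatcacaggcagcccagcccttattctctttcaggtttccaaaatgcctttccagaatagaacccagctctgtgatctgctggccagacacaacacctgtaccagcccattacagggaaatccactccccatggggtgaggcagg
Sprr2a3 (chr3:92285054-92285353, strand +): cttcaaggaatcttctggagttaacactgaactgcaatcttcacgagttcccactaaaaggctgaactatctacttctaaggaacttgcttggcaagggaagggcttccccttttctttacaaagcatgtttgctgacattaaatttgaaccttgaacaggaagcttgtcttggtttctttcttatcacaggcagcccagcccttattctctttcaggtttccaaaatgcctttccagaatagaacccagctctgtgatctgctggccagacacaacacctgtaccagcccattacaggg
Sprr2i (chr3:92407741-92408040, strand +): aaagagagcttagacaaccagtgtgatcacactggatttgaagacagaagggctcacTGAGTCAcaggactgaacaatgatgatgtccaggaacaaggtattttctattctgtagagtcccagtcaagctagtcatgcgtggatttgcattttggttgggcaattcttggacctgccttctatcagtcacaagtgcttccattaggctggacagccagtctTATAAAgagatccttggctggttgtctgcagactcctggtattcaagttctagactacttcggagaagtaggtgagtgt
Ivl (chr3:92573686-92573985, strand -): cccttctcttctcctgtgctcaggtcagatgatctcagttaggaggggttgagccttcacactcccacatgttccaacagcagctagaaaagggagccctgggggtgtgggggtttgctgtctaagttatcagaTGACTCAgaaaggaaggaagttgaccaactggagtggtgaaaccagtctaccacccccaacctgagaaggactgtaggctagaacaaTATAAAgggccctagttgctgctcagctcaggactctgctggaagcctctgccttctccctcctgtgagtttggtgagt
Krtdap (chr7:30787655-30787954, strand +): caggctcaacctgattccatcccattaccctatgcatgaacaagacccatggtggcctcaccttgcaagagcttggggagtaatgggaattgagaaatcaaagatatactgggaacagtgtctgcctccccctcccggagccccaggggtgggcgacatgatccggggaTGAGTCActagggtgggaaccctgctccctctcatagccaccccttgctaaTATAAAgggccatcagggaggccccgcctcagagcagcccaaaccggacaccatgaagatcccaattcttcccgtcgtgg

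TATAAA was in 18 of the 40 windows (45%), against 13.6% of all 32851 windows in the RefSeq table. TGANTCA was in 15 of 40 (37.5%), against 7.81% of all windows. GGGCGG was in 1 of 40 (2.5%), the Sprr2h window, against 35.7% of all windows. The 7 matched Sprr2 genes outside the Sprr2a group (Sprr2b, 2d, 2e, 2f, 2h, 2i and 2k) all had TATAAA at position -29 relative to the start and TGANTCA between -198 and -193, and Sprr2k had TGANTCA again at -182. None of the 3 motifs was in the windows of Sprr2a1, Sprr2a2 and Sprr2a3. Their letters were 82.9% to 100% identical to one another and 49.2% to 53.3% identical to those of the other Sprr2 genes. The Sprr2a3 window holds the same letters as that of Sprr2a1 at an offset. The 82.9% counts the unmatched ends of these windows and no difference within the shared stretch. The RefSeq starts of these 3 genes lie 36, 100 and 113 bases from the nearest GENCODE start, and windows at other starts were not searched. The letters ccagcccattacaggg at or near the end of these 3 windows are also in the Sprr2b window, before its TATAAA. The Sprr2a windows end before the place that matches this TATAAA. The missing motifs and the low identity thus hold for these windows only, not for the promoters of the Sprr2a genes. TATAAA and TGANTCA were both in the windows of Ivl, Lor, Flg, Sprr1a, Sprr1b and Krtdap, and TGANTCA without TATAAA in those of Sbsn and Flg2. Of the 20 Lce windows, 4 had TATAAA and 0 had TGANTCA. In Lce1d and Lce1m TATAAA lay at -30 and -29, and in Lce6a and Lce3e it lay on the opposite strand, at -218 and -243.

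Between the cell types, most cornified envelope genes had more RNA in mTEChi. Of the 42, 41 passed the filter on low counts and were tested, all but Lce1l. The Lce genes and others near 0 in mTEClo passed it through their mTEChi libraries, which favoured the direction of higher in mTEChi for them. In cHyper, 37 of 41 were higher in mTEChi and 3 were lower (edgeR adjusted p under 0.05), against a background of 38.7% of all tested genes higher and 25.8% lower (64.5% in either direction). In WT, 35 were higher and 4 lower, against 40.2% and 29.4% of all tested genes (69.5% in either direction). The 35 higher in WT were all among the 37 higher in cHyper. The median log2 fold change of the 41 was 4.81 in cHyper and 4.37 in WT, beside 0.13 and 0.12 over all tested genes. These all-gene medians became 0.18 and 0.22 with DESeq2 size factors and 0.30 and 0.34 with library totals as scaling. In these bulk samples, fewer cells of a type and less RNA per cell cannot be told apart.

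In mTEClo, Sprr2a1 to Sprr2a3 carried most of the fragments of these genes. Summed over the 42 genes, the level was 578 to 958 CPM in cHyper mTEChi and 514 to 588 CPM in WT mTEChi, against 2949.6 to 4676 CPM in cHyper mTEClo and 1349 to 2119 CPM in WT mTEClo. Without Sprr2a1 to Sprr2a3 the order of the cell types turned round, with 328 to 400.3 CPM in cHyper mTEChi and 349 to 414 CPM in WT mTEChi, against 98.4 to 157 CPM in cHyper mTEClo and 159 to 179 CPM in WT mTEClo.

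**Figure D1:**
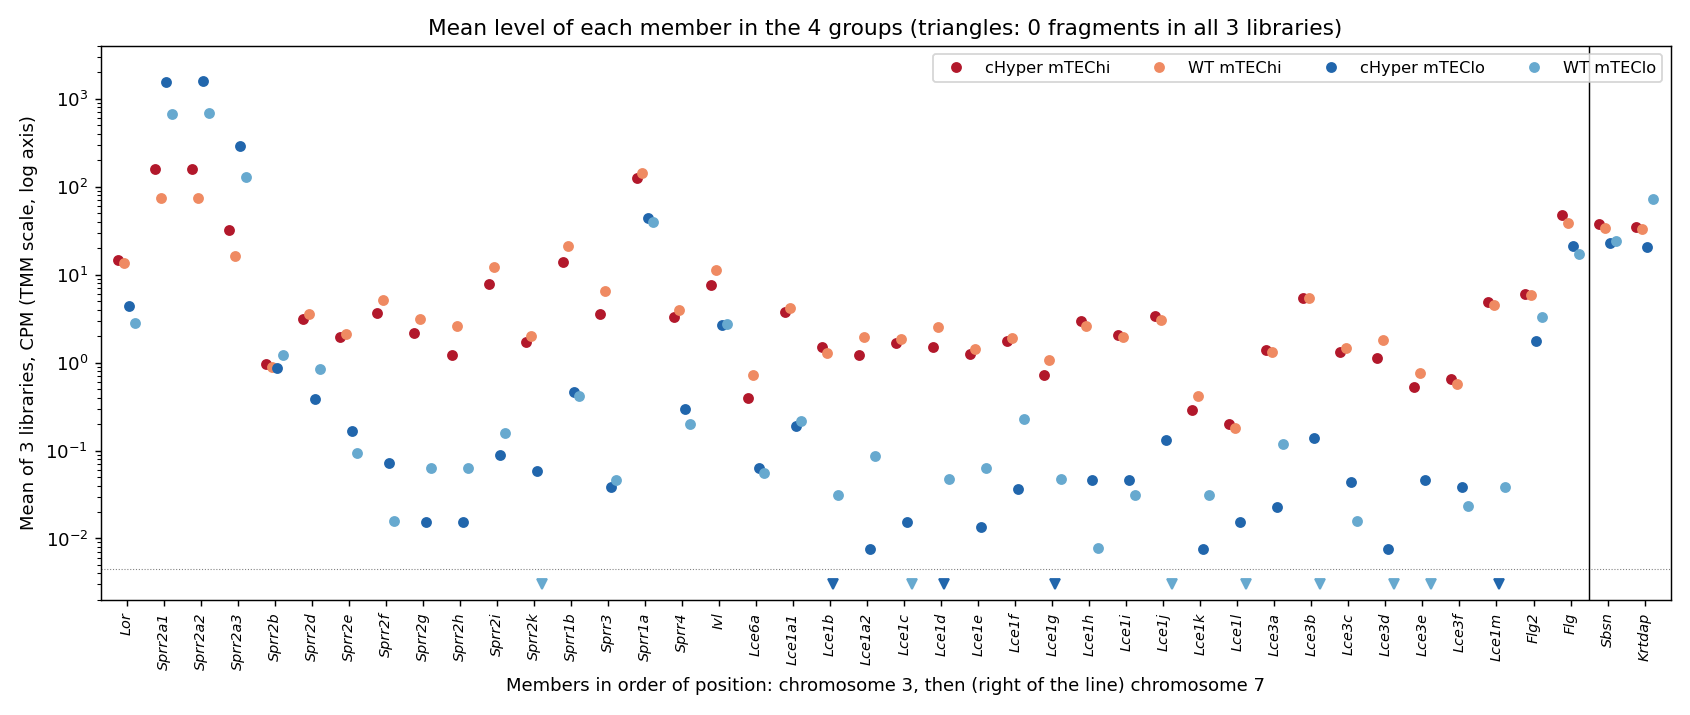
Mean level of each of the 42 genes over 3 libraries in each group, in CPM on a log axis, in order of position along chromosome 3 and then chromosome 7. Triangles mark groups with 0 fragments. Within each genotype the mTEChi mean lies above the mTEClo mean, except at Sprr2a1 to Sprr2a3 in both genotypes and at Sprr2b and Krtdap in WT.

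Between the genotypes, fewer of these genes were called than between the cell types, as was the case over all tested genes. In mTEClo, 4 of 41 were higher in cHyper (Sprr2a1, Sprr2a2, Sprr2a3 and Lce1j) and 1 was lower (Krtdap), beside 4.53% and 4.64% of all tested genes (edgeR adjusted p under 0.05; 9.16% in either direction). In mTEChi, 0 of 41 were called, beside 1.98% of all tested genes (1.56% higher and 0.418% lower). At an unadjusted p under 0.05, 3 were higher and 5 lower there, beside 8.41% and 6.57% of all tested genes. DESeq2 called 1 higher (Sprr2a3) and 3 lower (Sprr2i, Sprr1b and Ivl) in mTEChi, beside 5.03% of all tested genes, and limma-voom called 1 lower (Sprr2i), beside 2.98%. With the replicate number as a block, edgeR called 3 higher in mTEChi (Sprr2a1 to Sprr2a3), beside 4.32% of all tested genes. Marker genes of other cells also moved between the genotypes in mTEClo: the sum of 6 fibroblast markers was 65.1 to 116 CPM in cHyper, against 34.1 to 38.3 CPM in WT, with Col3a1 and Dpt higher and Pdgfra lower. Of 7 mature mTEC markers, Aire and Ciita were higher and Cd80 lower in cHyper mTEClo, while the sum was 6616 to 6919 CPM in cHyper, against 6776 to 7208 CPM in WT. Of 5 erythroid markers, Hbb-bs and Hbb-bt were lower, at a sum of 4.40 to 9.67 CPM in cHyper mTEClo, against 12.5 to 20.7 CPM in WT mTEClo. The 4 endothelial markers summed to 5.97 to 6.55 CPM in cHyper mTEClo, against 8.05 to 9.89 CPM in WT mTEClo, with 0 of 4 called, and 1 of 8 myeloid markers (C1qb) was lower. Of 9 thymocyte and 4 B cell markers 0 were called in mTEClo. The part of these cells in the calls was not tested.

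**Figure D2:**
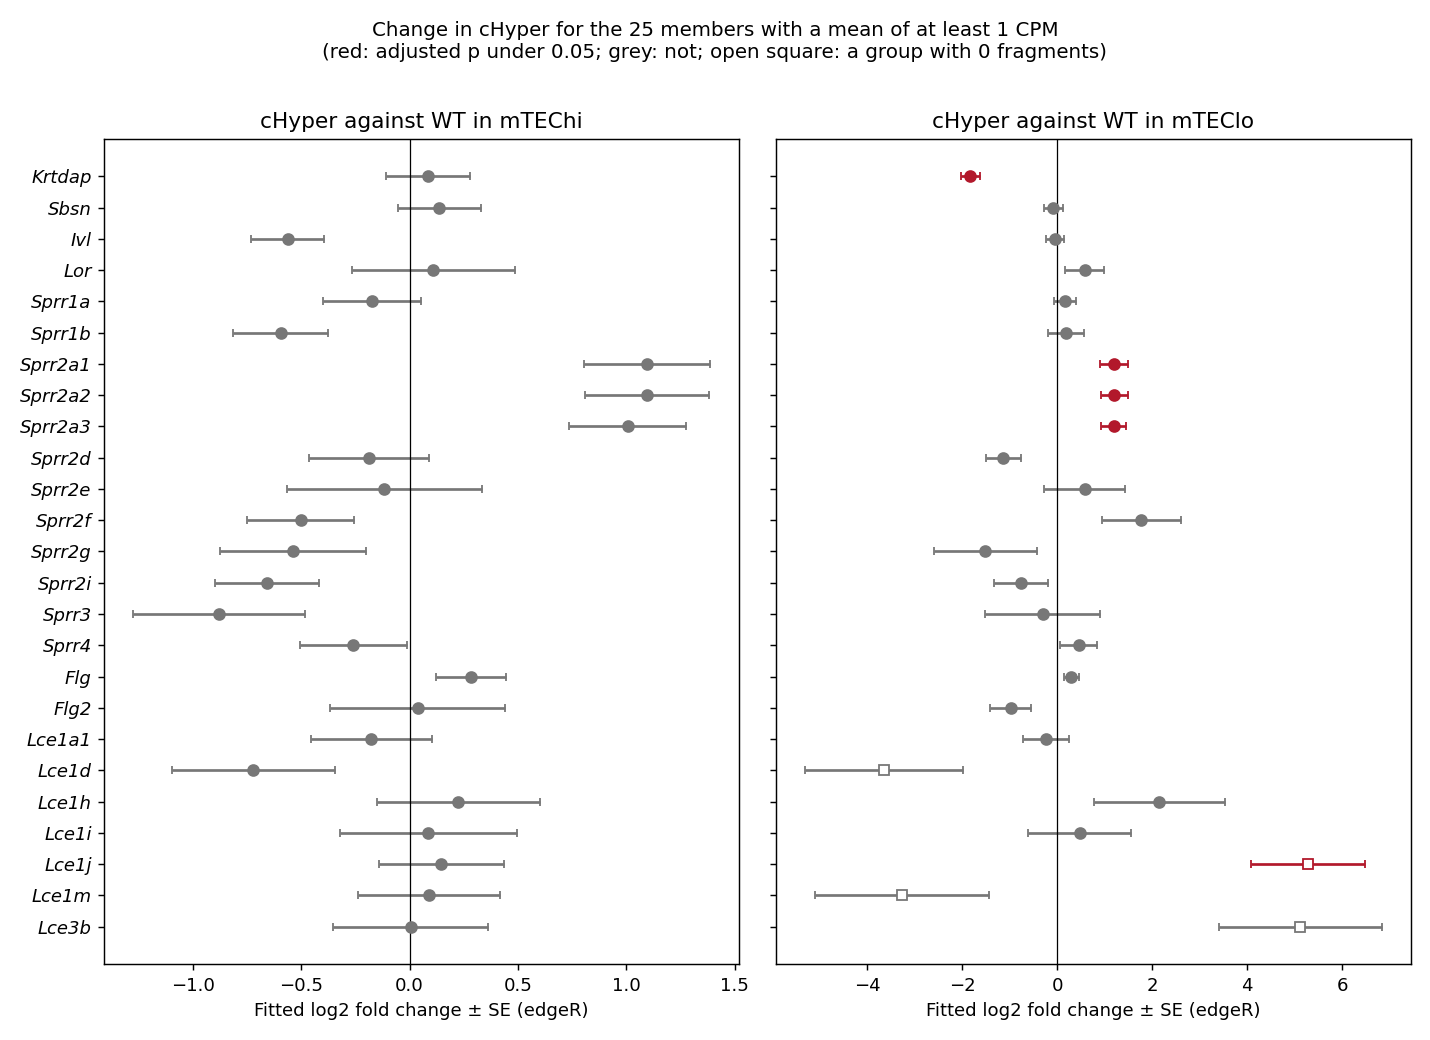
Fitted log2 fold change of cHyper against WT (± SE, edgeR) for the 25 genes that averaged 1 CPM or more over the 12 libraries, in mTEChi (left) and mTEClo (right, on a wider axis). Red marks adjusted p under 0.05, which holds in mTEClo for Krtdap on the lower side and for Sprr2a1 to Sprr2a3 and Lce1j on the higher side, and open squares are genes with 0 fragments in a group, whose fitted value is no estimate of size.

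Krtdap (ENSMUSG00000074199, chromosome 7, 30787896 to 30791097, mm10) encodes a small secreted protein of suprabasal keratinocytes. In mTEClo, Krtdap had 19.5, 17.5 and 24.3 CPM in cHyper, against 68.3, 79.9 and 68.2 CPM in WT. All cHyper values were far under all WT values in mTEClo. The fold change was -1.83 on the log2 scale (SE 0.20, edgeR adjusted p = 3.95e-05), a level 3.55-fold lower in cHyper. In mTEChi, Krtdap had 34.7, 33.8 and 36.1 CPM in cHyper, against 44.1, 32.9 and 21.5 CPM in WT. The cHyper values there lay inside the wide range of the WT values, and the change did not pass the test (log2 0.08, SE 0.19, adjusted p = 0.881). The genotype effect in mTEChi exceeded that in mTEClo by 1.91 on the log2 scale (SE 0.28, adjusted p = 0.00226).

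Krtdap was thereby the 1 gene of 41 called in the test of the difference between the genotype effects, beside 2.06% of all tested genes (1.13% with a positive and 0.926% with a negative difference). In cHyper it was higher in mTEChi than in mTEClo (log2 0.78, SE 0.20, adjusted p = 0.00301). In WT it was lower in mTEChi (log2 -1.13, SE 0.20, adjusted p = 1.16e-04). Both cell-type differences kept their sign and their call when any library was left out.

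Sbsn (chromosome 7, 30751471 to 30756134) encodes suprabasin, another secreted suprabasal protein and a neighbour of Krtdap. Sbsn in mTEChi had 37.9, 31.6 and 43.9 CPM in cHyper, against 41.0, 31.5 and 30.4 CPM in WT. In mTEClo, Sbsn had 20.6, 21.3 and 27.7 CPM in cHyper, against 28.0, 28.2 and 17.0 CPM in WT. The genotypes overlapped in both cell types (adjusted p = 0.784 in mTEChi and 0.871 in mTEClo), unlike Krtdap in mTEClo. It was higher in mTEChi in cHyper (log2 0.70, SE 0.19, adjusted p = 0.00537) and in WT (log2 0.49, SE 0.19, adjusted p = 0.0366). The WT call was lost without WT mTEChi replicate 1 (adjusted p = 0.147), WT mTEClo replicate 3 (0.230), cHyper mTEChi replicate 3 (0.0543) or cHyper mTEClo replicate 1 (0.0570). The gene model overlaps Tmem147os over 4656 bases of the same strand, so its counts are uncertain. Dmkn, which encodes dermokine and lies between Sbsn and Krtdap, was chosen after its values were seen: it had 78.8 ± 15.4 CPM in cHyper mTEChi and 67.6 ± 24.8 CPM in WT mTEChi, against 27.0 ± 4.22 CPM in cHyper mTEClo and 26.3 ± 6.62 CPM in WT mTEClo. It was higher in mTEChi in both genotypes, and its genotype difference in mTEClo did not pass (log2 0.03, adjusted p = 0.997).

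**Figure D3:**
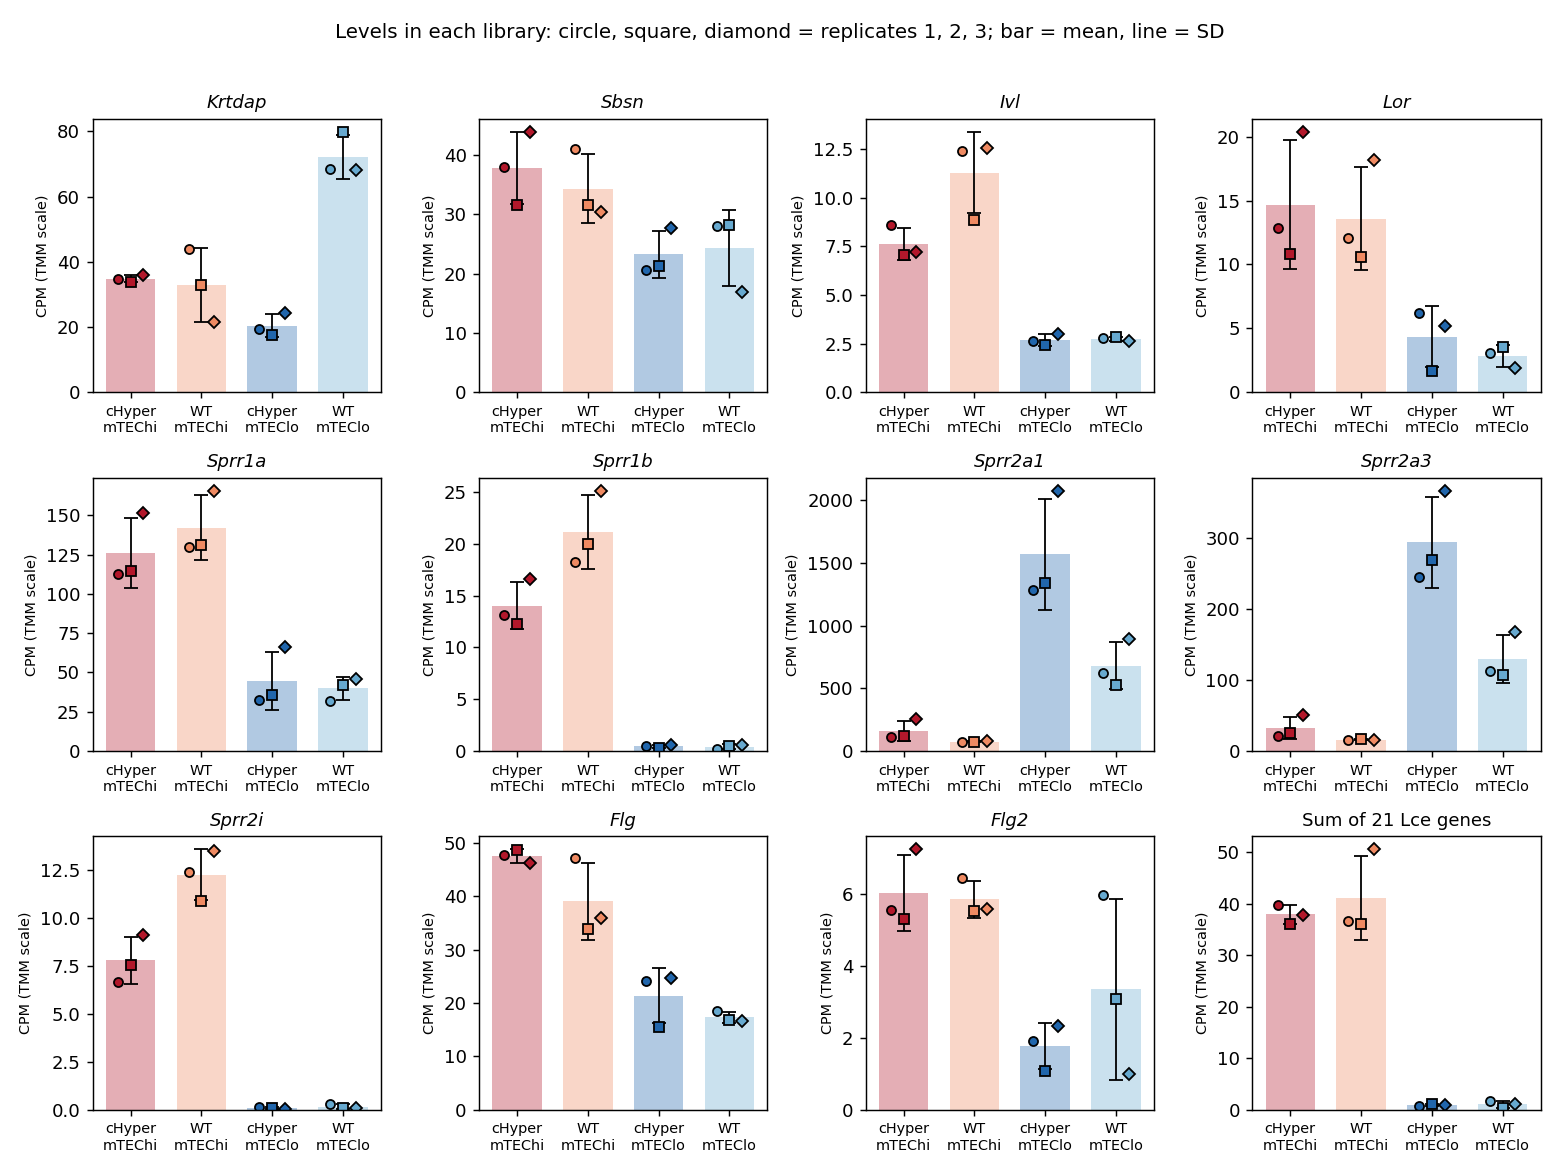
Level of 11 genes and of the sum of the 21 Lce genes in each library, in CPM, with bars at the mean of 3 libraries, lines for the SD and symbols for replicates 1 to 3. Krtdap is highest in WT mTEClo, Sprr2a1 and Sprr2a3 are highest in cHyper mTEClo, and most others are higher in both mTEChi groups.

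Ivl (ENSMUSG00000049128, chromosome 3, 92570902 to 92573735) encodes involucrin, an early scaffold of the envelope. In mTEChi, Ivl had 8.58, 7.08 and 7.23 CPM in cHyper, against 12.4, 8.87 and 12.6 CPM in WT. In mTEClo, Ivl had 2.63, 2.44 and 3.01 CPM in cHyper, against 2.76, 2.85 and 2.63 CPM in WT. Every cHyper mTEChi library was under every WT mTEChi library, while in mTEClo the genotypes overlapped. How often the libraries of 2 groups separate in this way was not counted over all tested genes, here or for the genes below. Such separation without a call is therefore description only. The mTEChi genotype difference was -0.56 (log2, SE 0.17, edgeR adjusted p = 0.119) and did not pass, although it did in DESeq2 (adjusted p = 0.0157). Involucrin RNA was 2.85-fold higher in mTEChi of cHyper (adjusted p = 3.73e-06) and 4.10-fold higher in mTEChi of WT (adjusted p = 1.36e-07).

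Lor (chromosome 3, 92080271 to 92083142) encodes loricrin, the bulk protein of the mature envelope in skin. In mTEChi, Lor had 12.8, 10.9 and 20.4 CPM in cHyper, against 12.05, 10.6 and 18.2 CPM in WT. In mTEClo, Lor had 6.23, 1.63 and 5.21 CPM in cHyper, against 3.09, 3.52 and 1.88 CPM in WT. The genotypes overlapped in both cell types (adjusted p = 0.922 in mTEChi and 0.427 in mTEClo), and the cell types did not overlap in either genotype. Loricrin RNA was 3.38-fold higher in mTEChi of cHyper (adjusted p = 0.00127) and 4.69-fold higher in mTEChi of WT (adjusted p = 1.92e-04).

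Sprr2a1, Sprr2a2 and Sprr2a3 encode small proline-rich proteins and behaved as a group apart. In mTEClo, Sprr2a1 (ENSMUSG00000078664, chromosome 3, 92215799 to 92221911) had 1282, 1342 and 2076 CPM in cHyper, against 623, 526 and 893 CPM in WT. In mTEChi, Sprr2a1 had 109, 118 and 254 CPM in cHyper, against 70.6, 73.5 and 80.4 CPM in WT. In both cell types the cHyper libraries were all above the WT libraries, and the lowest mTEClo library exceeded the highest mTEChi library. In TPM its mean was 1104 ± 329 in cHyper mTEClo, where it ranked 72 to 133 among all genes of a library, and 483 ± 126 in WT mTEClo, where it ranked 207 to 362. The rise in cHyper mTEClo was 1.20 on the log2 scale (SE 0.29, edgeR adjusted p = 0.0177).

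Sprr2a2 (chromosome 3, 92215920 to 92256724) in mTEClo had 1313, 1355 and 2076 CPM in cHyper, against 630.4, 536 and 899 CPM in WT. In mTEChi, Sprr2a2 had 108, 121 and 252 CPM in cHyper, against 71.7, 75.2 and 77.9 CPM in WT. These are nearly the values of Sprr2a1 library by library, at a ratio of fragments (Sprr2a1 over Sprr2a2) of 0.970 to 1.03 in all 12 libraries. The 2 gene models overlap over 5992 bases of the same strand, and transcripts of the 3 Sprr2a genes are 94.9% to 98.3% identical, so how their fragments were shared out is uncertain and they are not 3 independent observations. Summed as 1 gene, an alternative chosen after seeing the data, they gave 3 called genes in mTEClo in place of 5, 2 higher and 1 lower.

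Sprr2a3 (chromosome 3, 92285417 to 92291405) in mTEClo had 245, 269 and 367 CPM in cHyper, against 112, 107 and 168 CPM in WT. In mTEChi, Sprr2a3 had 21.6, 25.7 and 50.6 CPM in cHyper, against 15.4, 17.0 and 16.0 CPM in WT. It ran lower than its 2 neighbours throughout, with the same order of groups. The mTEClo changes were 1.19 (log2, SE 0.26, adjusted p = 0.0100) for Sprr2a3 and 1.20 (SE 0.28, adjusted p = 0.0155) for Sprr2a2.

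The mTEClo calls of Sprr2a1 and Sprr2a2 were lost without cHyper mTEClo replicate 3 (adjusted p = 0.0612 and 0.0542), WT mTEClo replicate 1 (0.0614 and 0.0558) or WT mTEClo replicate 2 (0.0607 and 0.0551), while that of Sprr2a3 held in each. In mTEChi, set against the WT library of the same number, the cHyper level of Sprr2a1 was 1.54, 1.60 and 3.16 times as high in replicates 1, 2 and 3, so that replicate 3 stood above the other two.

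In mTEChi the log2 fold changes were 1.10, 1.10 and 1.01 for Sprr2a1, Sprr2a2 and Sprr2a3 (edgeR adjusted p = 0.0732, 0.0654 and 0.0743). None of the 3 passed. They did with the replicate number as a block (adjusted p = 0.00363, 0.00457 and 0.00865), with no filter on low counts (4.67e-04, 3.61e-04 and 7.59e-04) and with the mTEChi libraries fitted alone (0.0333, 0.0303 and 0.0431). Without cHyper mTEChi replicate 3 the changes were 0.59, 0.61 and 0.55. Of 6 thymic epithelium markers, 2 (Krt5 and Krt14) were called higher in cHyper mTEChi and 0 lower, beside 1.56% and 0.418% of all tested genes. Krt5 and Krt14 had 1335 ± 318 and 543 ± 55.7 CPM in cHyper mTEChi, against 679.8 ± 107 and 241 ± 17.8 CPM in WT mTEChi. Both were also lower in mTEChi than in mTEClo, as was Krt18, which was not called between the genotypes. The part of these keratins in the Sprr2a levels was not tested. The genotype effects of Sprr2a1 to Sprr2a3 in mTEChi and mTEClo differed by -0.18 to -0.10 on the log2 scale (adjusted p = 0.910 to 0.974), which did not pass.

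Between the cell types, Sprr2a1 was 9.79-fold lower in mTEChi of cHyper (adjusted p = 3.68e-07) and 9.09-fold lower in mTEChi of WT (adjusted p = 4.02e-07). The fold for Sprr2a3 was 9.05 in cHyper and 7.98 in WT. These 3 genes were the members lower in mTEChi in both genotypes.

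The other Sprr2 genes, which follow Sprr2a3 at higher coordinates, showed the opposite order of cell types. Of 8, 7 were higher in mTEChi in cHyper and the same 7 in WT, at a median fold of group means of 40.2 in cHyper and 45.6 in WT, with the 1 group at 0 fragments (Sprr2k in WT mTEClo) taken at its bound. Sprr2b differed from the rest of the group: its levels were 1.01, 0.853 and 1.03 CPM in cHyper mTEChi and 0.912, 0.757 and 1.01 CPM in WT mTEChi, against 0.731, 0.804 and 1.06 CPM in cHyper mTEClo and 0.331, 1.02 and 2.30 CPM in WT mTEClo. All 4 groups of Sprr2b overlapped.

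Sprr2i (chromosome 3, 92407991 to 92409271) had the highest TPM of these, at 28.9 ± 3.34 TPM in cHyper mTEChi and 48.8 ± 5.14 TPM in WT mTEChi. In mTEChi, Sprr2i had 6.69, 7.58 and 9.13 CPM in cHyper, against 12.4, 10.9 and 13.5 CPM in WT. In mTEClo, Sprr2i had 0.137, 0.0919 and 0.0407 CPM in cHyper, against 0.307, 0.0694 and 0.0938 CPM in WT. The cHyper mTEChi libraries were all under the WT ones, and mTEClo held only traces. The mTEChi genotype difference of -0.66 (log2, SE 0.24, edgeR adjusted p = 0.214) did not pass, and passed in DESeq2 (adjusted p = 0.0105) and limma-voom (adjusted p = 0.0363). Sprr2i was higher in mTEChi of cHyper by 6.27 on the log2 scale (SE 0.38, adjusted p = 3.65e-09) and in mTEChi of WT by 6.17 on the log2 scale (SE 0.36, adjusted p = 1.43e-09).

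Sprr2d (chromosome 3, 92339140 to 92340873) in mTEChi had 3.62, 2.90 and 2.96 CPM in cHyper, against 4.20, 3.53 and 3.07 CPM in WT. In mTEClo, Sprr2d had 0.411, 0.207 and 0.529 CPM in cHyper, against 0.614, 0.694 and 1.22 CPM in WT. All cHyper mTEClo values were under all WT ones, the reverse of Sprr2a1 to Sprr2a3, and the change did not pass (log2 -1.13, SE 0.37, adjusted p = 0.0708), although DESeq2 called it (adjusted p = 0.0216), as did edgeR without cHyper mTEClo replicate 3 (log2 -1.38, adjusted p = 0.0449). Sprr2d was higher in mTEChi of cHyper by 3.10 on the log2 scale (SE 0.34, adjusted p = 1.59e-06) and in mTEChi of WT by 2.16 on the log2 scale (SE 0.31, adjusted p = 2.11e-05).

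Sprr2f in mTEChi had 3.53, 3.09 and 4.40 CPM in cHyper, against 4.88, 5.04 and 5.63 CPM in WT. Sprr2g in mTEChi had 2.08, 1.91 and 2.51 CPM in cHyper, against 3.39, 2.77 and 3.25 CPM in WT. Both had all cHyper libraries under all WT libraries, without a call (adjusted p = 0.362 for Sprr2f and 0.481 for Sprr2g). Sprr2e in mTEChi had 1.82, 1.61 and 2.47 CPM in cHyper, against 1.82, 2.36 and 2.16 CPM in WT, and there the genotypes overlapped. In mTEClo the 3 genes had at most 0.366 CPM in a cHyper library and at most 0.189 CPM in a WT library. Between the cell types all 3 passed. Sprr2e was higher in mTEChi of cHyper by 3.75 on the log2 scale (SE 0.60, adjusted p = 7.41e-05) and in mTEChi of WT by 4.45 on the log2 scale (SE 0.64, adjusted p = 2.12e-05). Sprr2f was higher in mTEChi of cHyper by 5.61 on the log2 scale (SE 0.39, adjusted p = 1.33e-08) and in mTEChi of WT against 2 fragments in all of its mTEClo libraries (adjusted p = 1.90e-09). Sprr2g was higher in mTEChi of cHyper against 2 fragments in all of its mTEClo libraries (adjusted p = 3.23e-07) and in mTEChi of WT by 5.71 on the log2 scale (SE 0.53, adjusted p = 2.11e-07). Transcripts of the Sprr2 genes outside the Sprr2a group are 56.8% to 80.5% identical to one another.

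Sprr1a (ENSMUSG00000050359, chromosome 3, 92483952 to 92485895), an envelope bridge that many stressed epithelia also express, had the highest TPM of the 42 genes in mTEChi, at 359 ± 51.1 in cHyper and 431 ± 44.1 in WT. In mTEChi, Sprr1a had 113, 114 and 152 CPM in cHyper, against 129.7, 131 and 166 CPM in WT. In mTEClo, Sprr1a had 32.2, 35.9 and 66.1 CPM in cHyper, against 31.5, 42.0 and 46.0 CPM in WT. Replicate 3 was the highest library in each group and the genotypes overlapped in both cell types (adjusted p = 0.766 in mTEChi and 0.736 in mTEClo). It was 2.83-fold higher in mTEChi of cHyper (adjusted p = 5.40e-05) and 3.58-fold higher in mTEChi of WT (adjusted p = 6.79e-06).

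Sprr1b (chromosome 3, 92436809 to 92438789) was nearly restricted to mTEChi. In mTEChi, Sprr1b had 13.2, 12.3 and 16.6 CPM in cHyper, against 18.3, 20.0 and 25.1 CPM in WT. In mTEClo, Sprr1b had 0.457, 0.322 and 0.610 CPM in cHyper, against 0.189, 0.463 and 0.610 CPM in WT. It was 31.1-fold higher in mTEChi of cHyper (adjusted p = 3.17e-09) and 53.4-fold higher in mTEChi of WT (adjusted p = 7.04e-10). All cHyper mTEChi libraries were under all WT ones, at a log2 difference of -0.60 (SE 0.22, edgeR adjusted p = 0.218) that passed in DESeq2 (adjusted p = 0.0346) and not in edgeR.

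Sprr3, the esophageal family member, had 2.87, 3.30 and 4.52 CPM in cHyper mTEChi, against 5.60, 5.34 and 8.65 CPM in WT mTEChi. Sprr3 in mTEClo had 0, 0.115 and 0 CPM in cHyper, against 0, 0.139 and 0 CPM in WT. All cHyper mTEChi libraries were under all WT ones, without a call (adjusted p = 0.317). Sprr4 had 3.14, 3.60 and 3.25 CPM in cHyper mTEChi, against 3.78, 3.53 and 4.69 CPM in WT mTEChi, and 0.411, 0.230 and 0.244 CPM in cHyper mTEClo, against 0.212, 0.301 and 0.0938 CPM in WT mTEClo. Sprr3 was higher in mTEChi of cHyper by 6.22 on the log2 scale (SE 0.67, adjusted p = 1.43e-06) and in mTEChi of WT by 6.79 on the log2 scale (SE 0.64, adjusted p = 2.82e-07). Sprr4 was higher in mTEChi of cHyper by 3.45 on the log2 scale (SE 0.31, adjusted p = 2.00e-07) and in mTEChi of WT by 4.16 on the log2 scale (SE 0.33, adjusted p = 3.52e-08). All 4 genes of this subgroup were higher in mTEChi in both genotypes, and 0 of 4 were called between the genotypes.

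Flg (ENSMUSG00000102439, chromosome 3, 93273523 to 93293686) encodes profilaggrin, which is cut into filaggrin units that bundle keratins. In mTEChi, Flg had 47.7, 48.7 and 46.3 CPM in cHyper, against 47.3, 33.9 and 36.0 CPM in WT. In mTEClo, Flg had 24.1, 15.5 and 24.7 CPM in cHyper, against 18.6, 16.8 and 16.6 CPM in WT. The genotypes overlapped in both cell types (adjusted p = 0.431 in mTEChi and 0.296 in mTEClo). Filaggrin RNA was 2.23-fold higher in mTEChi of cHyper (adjusted p = 2.30e-05) and 2.25-fold higher in mTEChi of WT (adjusted p = 1.73e-05).

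Flg2 (chromosome 3, 93197278 to 93221391), its neighbour and a related S100-fused protein, had 5.55, 5.30 and 7.23 CPM in cHyper mTEChi, against 6.43, 5.52 and 5.59 CPM in WT mTEChi. In mTEClo, Flg2 had 1.92, 1.08 and 2.32 CPM in cHyper, against 5.97, 3.08 and 0.985 CPM in WT. The WT mTEClo libraries spread widely: the highest reached the mTEChi levels and the lowest was under all cHyper mTEClo libraries. Flg2 was higher in mTEChi of cHyper (log2 1.78, SE 0.44, adjusted p = 0.00233) and did not pass in WT (log2 0.76, SE 0.41, adjusted p = 0.112). The difference between the genotypes did not pass in mTEClo (log2 -0.98, adjusted p = 0.193). It passed without WT mTEClo replicate 3 (log2 -1.39, adjusted p = 0.0178) and without replicate 3 of every group (log2 -1.61, adjusted p = 0.0223), and over all settings that leave libraries out it was -1.61 to -0.29. With all libraries, the test of the difference between the effects gave an adjusted p of 0.484.

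The Lce genes encode small cysteine- and glycine-rich proteins that are cross-linked late in envelope assembly. Their summed level was 39.8, 36.1 and 37.9 CPM in cHyper mTEChi, against 36.6, 36.2 and 50.6 CPM in WT mTEChi. In mTEClo the sum was 0.639, 1.08 and 0.895 CPM in cHyper, against 1.77, 0.324 and 1.03 CPM in WT. The genotypes overlapped in each cell type and the cell types were far apart. All 20 tested Lce genes were higher in mTEChi in cHyper, and all 20 in WT. Lce group means in mTEClo were at most 0.228 CPM, so these genes passed the filter on low counts through their mTEChi libraries. The filter thereby favoured genes higher in mTEChi, and the counts of 20 carry that limit. The median fold of group means was 46.4 in cHyper and 34.1 in WT, with 4 and 5 genes whose mTEClo libraries held 0 fragments taken at a bound of 3 fragments over the group. The smallest folds were 6.26 (Lce6a) in cHyper and 8.41 (Lce1f) in WT.

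Lce3b (chromosome 3, 92932979 to 92934097) was the most abundant Lce gene by TPM, at 22.4 ± 3.48 TPM in cHyper mTEChi and 23.7 ± 3.93 TPM in WT mTEChi. In mTEChi, Lce3b had 6.10, 5.21 and 5.06 CPM in cHyper, against 4.96, 4.70 and 6.74 CPM in WT. In mTEClo, Lce3b had 0, 4 and 8 fragments in the cHyper libraries, against 0 in all 3 WT libraries. The WT mTEChi level was at least 188-fold higher than that of WT mTEClo. Between the genotypes in mTEClo, the 12 fragments of cHyper did not pass the test (adjusted p = 0.0866). They passed with DESeq2 (adjusted p = 0.00731), with no filter on low counts (0.0176) and without cHyper mTEClo replicate 1 (0.0141).

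Lce1j (chromosome 3, 92788840 to 92790514) was the Lce gene called between the genotypes. In mTEClo, Lce1j had 4, 6 and 4 fragments in the cHyper libraries, against 0 in all 3 WT libraries (edgeR adjusted p = 0.0155). Against a floor of 3 fragments over the WT group, the level was at least 4.46-fold higher in cHyper. The call rests on 14 fragments in all. Lce1j passed the filter on low counts through its mTEChi libraries, and with the mTEClo libraries alone it did not pass the filter and was not tested. In mTEChi, Lce1j had 2.90, 2.67 and 4.52 CPM in cHyper, against 2.35, 2.70 and 4.04 CPM in WT, and the genotypes overlapped. The test of the difference between the genotype effects did not pass (adjusted p = 0.0600), and it passed with no filter (0.0189), with DESeq2 (0.0196) and with the replicate block (0.0236).

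Lce1m had 5.53, 3.30 and 5.67 CPM in cHyper mTEChi, against 3.63, 3.61 and 6.45 CPM in WT mTEChi. Lce1a1 had 3.53, 3.96 and 3.66 CPM in cHyper mTEChi, against 4.20, 3.92 and 4.51 CPM in WT mTEChi. Lce1h had 3.16, 2.58 and 3.25 CPM in cHyper mTEChi, against 2.14, 2.16 and 3.43 CPM in WT mTEChi. In these 3 genes the genotypes overlapped. Lce1d had 1.58, 1.96 and 0.986 CPM in cHyper mTEChi, against 1.78, 2.73 and 3.10 CPM in WT mTEChi. Lce1i had 2.15, 2.097 and 1.89 CPM in cHyper mTEChi, against 1.82, 1.43 and 2.60 CPM in WT mTEChi. The genotypes overlapped for both, and in mTEClo none of the 5 exceeded 0.228 CPM in a cHyper library or 0.425 CPM in a WT library. Lce1a1 was higher in mTEChi of cHyper by 4.23 on the log2 scale (SE 0.37, adjusted p = 1.66e-07) and in mTEChi of WT by 4.17 on the log2 scale (SE 0.37, adjusted p = 1.24e-07). Lce1m was higher in mTEChi of cHyper at least 175-fold (adjusted p = 1.56e-07) and in mTEChi of WT against 3 fragments in all of its mTEClo libraries (adjusted p = 2.70e-07). Lce1h was higher in mTEChi of cHyper by 5.73 on the log2 scale (SE 0.59, adjusted p = 8.48e-07) and in mTEChi of WT against 1 fragment in all of its mTEClo libraries (adjusted p = 4.85e-07). So few mTEClo fragments leave the size of these differences loosely measured. Lce1d was higher in mTEChi of cHyper at least 59.6-fold (adjusted p = 2.56e-06) and in mTEChi of WT by 5.93 on the log2 scale (SE 0.61, adjusted p = 1.89e-06). Lce1i was higher in mTEChi of cHyper by 5.19 on the log2 scale (SE 0.63, adjusted p = 4.27e-06) and in mTEChi of WT by 5.58 on the log2 scale (SE 0.67, adjusted p = 3.42e-06). None of the 5 was called between the genotypes.

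The other 17 genes, 14 Lce genes with Sprr2b, Sprr2h and Sprr2k, had means under 1 CPM over the 12 libraries. Their group means ran from 0.199 to 1.76 CPM in cHyper mTEChi and 0.182 to 2.60 CPM in WT mTEChi, against 0 to 0.864 CPM in cHyper mTEClo and 0 to 1.22 CPM in WT mTEClo. At least 1 fragment of every one of the 42 genes was counted in each mTEChi library, and of 23 to 34 genes in an mTEClo library. The floors used for genes at 0 fragments cover counting error only.

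Other genes of cornification moved in the same direction between the cell types. Of 70 such genes in 7 lists, 52 were higher and 7 lower in mTEChi of cHyper, and 53 higher and 9 lower in mTEChi of WT, at a median log2 fold change of 1.93 in cHyper and 2.15 in WT. Over all tested genes, 38.7% were higher and 25.8% lower in mTEChi of cHyper, and 40.2% higher and 29.4% lower in mTEChi of WT. Among the transglutaminases that cross-link the envelope, Tgm3 and Tgm5 were higher in mTEChi of both genotypes. Tgm3 had 59.9 ± 11.03 CPM in cHyper mTEChi and 37.9 ± 11.05 CPM in WT mTEChi, against 1.91 ± 0.992 CPM in cHyper mTEClo and 0.896 ± 0.0728 CPM in WT mTEClo. Tgm1 was lower in mTEChi of cHyper (log2 -0.51, SE 0.19, edgeR adjusted p = 0.0250) and did not pass in WT (log2 -0.32, SE 0.19, adjusted p = 0.141). All 12 proteases and inhibitors of cornification were higher in mTEChi of cHyper and 11 of 12 in WT, as were 7 of 8 barrier lipid enzymes in either genotype. The 12 transcription factors divided: 6 were higher in mTEChi of cHyper, with 3 lower, and 6 were higher in mTEChi of WT, with 4 lower. Trp63, the factor of basal epithelial identity, fell by 2.23 on the log2 scale in mTEChi of cHyper and by 2.52 in mTEChi of WT.

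Between the genotypes in mTEClo, 5 of the 70 were higher (Calml3, St14, Cyp4f39, Dsg1a and Krt79) and 3 lower (Prss8, Klf4 and Grhl3), beside 4.53% and 4.64% of all tested genes. Klf4, a factor needed for the epidermal barrier, had 49.4 ± 9.40 CPM in cHyper mTEClo and 87.9 ± 4.84 CPM in WT mTEClo (log2 -0.83, SE 0.15, adjusted p = 0.00274). Grhl3, another barrier factor, had 2.61 ± 0.465 CPM in cHyper mTEClo and 4.61 ± 0.959 CPM in WT mTEClo (log2 -0.82, SE 0.19, adjusted p = 0.0152). Neither passed the test in mTEChi (adjusted p = 0.460 and 0.882). In mTEChi, 2 of the 70 were called, Calml3 and St14, both higher in cHyper, beside 1.98% of all tested genes.

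**Figure D4:**
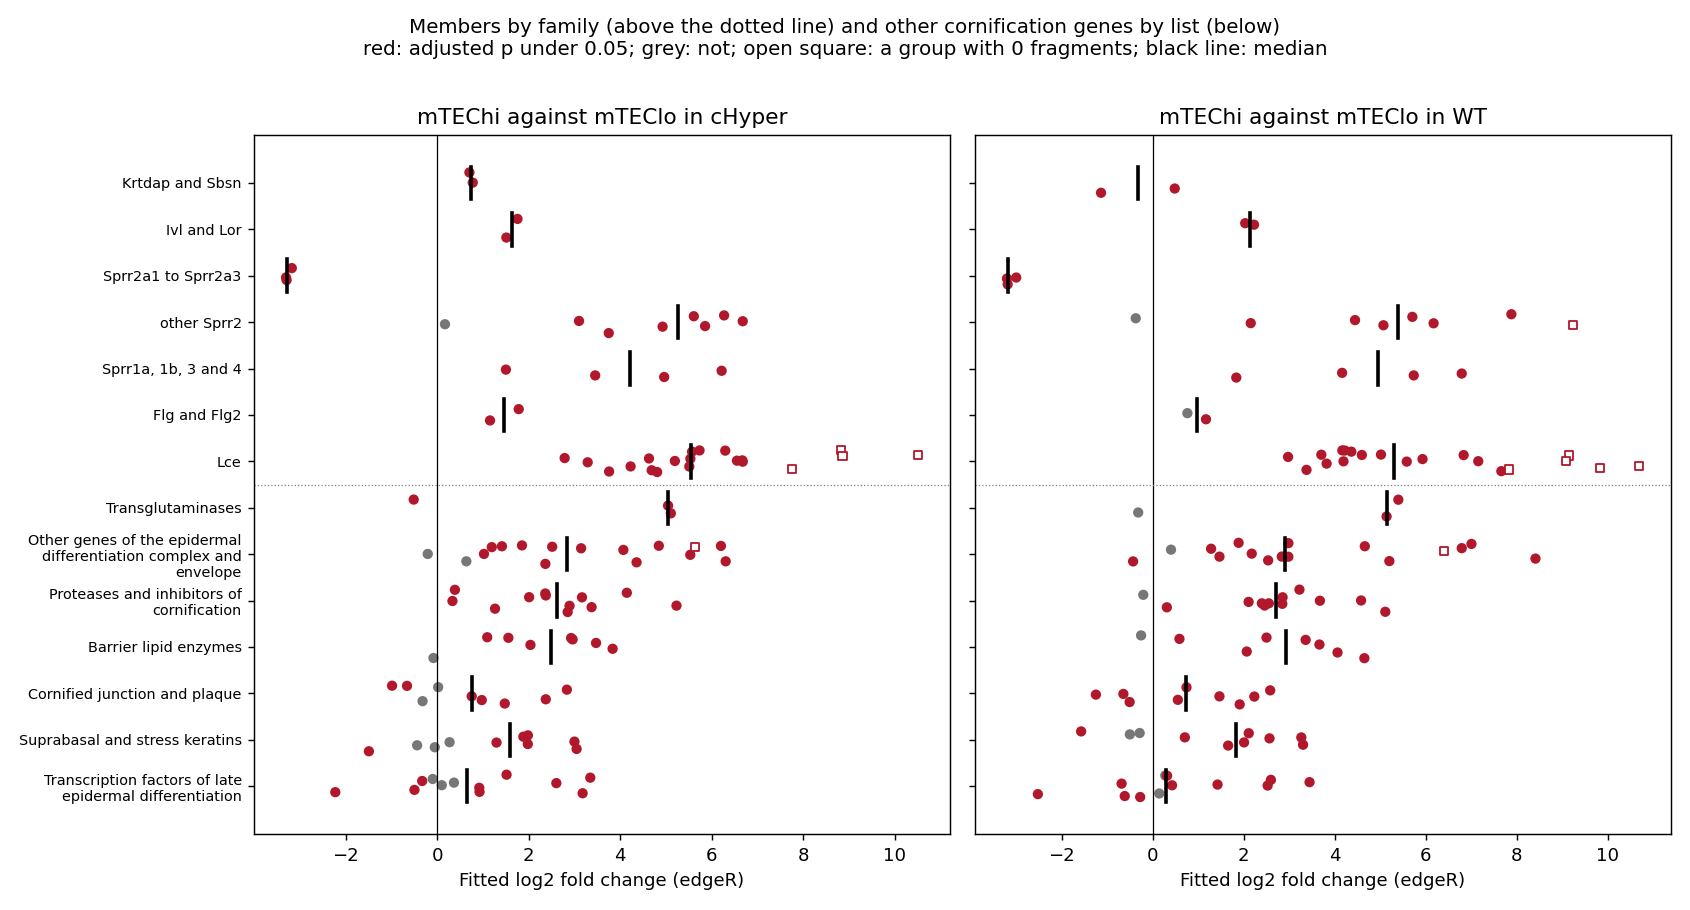
Fitted log2 fold change of mTEChi against mTEClo (edgeR) for the tested members by family and for 70 other cornification genes by list, in cHyper (left) and WT (right). Black lines mark the median of each row, which is below 0 for Sprr2a1 to Sprr2a3 in both genotypes and for Krtdap and Sbsn in WT; open squares are genes with 0 fragments in a group.

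On chromosome 3 the 40 members lie between 92080271 and 93293686 (mm10), a span of 1213 kb that holds 72 genes of the table. Of the 32 others, 20 were tested: 12 were higher and 0 lower in mTEChi of cHyper, and 13 higher and 3 lower in mTEChi of WT, against the same shares of all tested genes as above. They include Prr9, Lelp1, Kprp and Crct1, which were also counted among the other cornification genes above, so these counts overlap. The Sprr2a genes stand at the Lor end of the row of Sprr2 genes, so that neighbours within the cluster had opposite orders of the cell types. Between the genotypes, 1 of the 20 was called in mTEClo (2310046K23Rik, higher in cHyper) and 0 in mTEChi, beside 9.16% and 1.98% of all tested genes.

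Markers of other cells were also higher in mTEChi. Of 8 myeloid and dendritic markers, 8 were higher in either genotype, at a sum of 492 to 553 CPM in cHyper mTEChi and 496 to 671 CPM in WT mTEChi, against 28.7 to 47.5 CPM in cHyper mTEClo and 29.8 to 34.1 CPM in WT mTEClo. Of 5 pigment and hair follicle markers, which skin carried into a dissection would bring, 5 were higher in either genotype, at 61.4 to 70.9 CPM in cHyper mTEChi and 67.3 to 86.0 CPM in WT mTEChi, against 2.34 to 9.52 CPM in cHyper mTEClo and 1.41 to 14.8 CPM in WT mTEClo. In mTEClo, Krt27 was at 0 in cHyper and Tyrp1 at 0 in WT. All 4 B cell and all 4 endothelial markers were higher in mTEChi of both genotypes as well. Of 9 thymocyte markers, 4 were higher in mTEChi of cHyper and 7 in mTEChi of WT, and of 5 erythroid markers, 4 in cHyper and 3 in WT. Fibroblast markers went both ways, with 4 of 6 higher and 2 lower (Col3a1 and Dpt) in mTEChi of cHyper, and 3 higher and 1 lower (Col3a1) in mTEChi of WT. The part of such cells in the cell-type differences was not tested, nor was whether these RNAs came from the mTEC themselves.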

How the data were processed

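Stranded mRNA libraries were made from 75000 sorted cells after enrichment for EpCAM, per the labels' protocols. The authors deposited fragment counts per gene and TPM in 1 table. TopHat2 2.1.1, SAMtools 1.9, featureCounts of Subread 2.0.1 and mm10 are named per the submitters' processing notes, while neither the strand setting nor the annotation is given in the sources used here. The 20 GEO samples correspond to 12 libraries, since the table has 1 column for the run-tagged pair of samples of each replicate 1 and 2. Of the columns with values per sample, 1 could not be matched to a sample and was not used.

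Counts were scaled by TMM and tested with edgeR 4.0.16 (R 4.3.3): filterByExpr by group, quasi-likelihood fit of the 4 group means on all 12 libraries with 8 residual degrees of freedom, and Benjamini-Hochberg adjustment over 28932 genes. A call is an adjusted p under 0.05. No pair of libraries in a group was a duplicate. Alternatives used DESeq2 1.42.0 size factors or its Wald test, library totals, no filter, limma-voom (limma 3.58.1), the compared groups alone, a replicate block, and fewer libraries. Deviations of same-numbered libraries from their group means correlated weakly in every comparison. The values were 0.167, 0.136 and 0.206 in the mTEChi genotype comparison and 0.111, 0.104 and 0.125 in the cHyper cell types. No batch or pairing is stated for the replicate numbers. Genes averaging at least 1 CPM over the 12 libraries, and those called between genotypes, were described in full. Promoters came from the RefSeq table (GRCm38.p6), and transcript identities from GENCODE M21 with Biopython 1.88. The genes and lists were chosen with earlier results of these data known.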

Additional observations from a re-analysis of the deposited data

Results flagged for a closer look

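The Krtdap genotype effect differed between the cell types by 1.91 on the log2 scale (mTEChi minus mTEClo; edgeR adjusted p = 0.00226). Krtdap averaged 34.9 ± 1.16 CPM in cHyper mTEChi and 32.8 ± 11.3 CPM in WT mTEChi, against 20.4 ± 3.49 CPM in cHyper mTEClo and 72.1 ± 6.72 CPM in WT mTEClo (SD, n = 3 each). When single libraries, or replicate 3 of every group, were left out, the difference was 1.68 to 2.16, with an adjusted p of at most 0.00949.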

How the results depend on the processing

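Of 85 called results for single genes, 80 kept their direction and their call in every alternative, 2 did not pass the filter on low counts with the compared groups alone and were not tested there (Lce1j in mTEClo, Lce1k between cHyper cell types), 3 lost the call in some (Sprr2a1 and Sprr2a2 in mTEClo, Sbsn between WT cell types) and 0 reversed. The cell-type counts were 40 in cHyper and 39 in WT, and 40 to 41 and 39 to 41 with libraries left out; with the compared groups alone they were 39 in each. The mTEClo genotype count of 5 was 8 with DESeq2's Wald test, 7 with no filter, 4 with the compared groups alone, 3 with Sprr2a1 to Sprr2a3 summed, and 3 to 6 with libraries left out, the lowest without WT mTEClo replicate 1. The mTEChi genotype count of 0 was 3 with no filter, 4 with DESeq2's Wald test, 1 with limma-voom, 3 with the replicate block and 5 with the compared groups alone. With libraries left out it was 0 to 2, being 2 without replicate 3 of every group or without cHyper mTEClo replicate 3. The count of 1 for the difference between genotype effects was 3 with no filter, 3 with DESeq2's Wald test, 2 with the replicate block and 1 to 2 with libraries left out, being 2 without cHyper mTEClo replicate 1. The cause of these changes was not tested. Same-numbered libraries correlated at 0.0972 to 0.180 in the mTEClo genotype comparison and at 0.0930 to 0.233 between the WT cell types. These ranges overlap those of the other comparisons and do not tell paired from unpaired libraries. The replicate block left those counts at 5 and 39. The block also added Lce1j to the difference (edgeR adjusted p = 0.0236) and Sprr2a1 to Sprr2a3 to the mTEChi genotype calls. It changed no other call. Signs turned only among 12 of 27 results that had not passed. In the mTEChi genotype comparison, Flg2 was -0.020 with DESeq2 size factors, -0.032 with library totals, -0.016 with DESeq2's Wald test and -0.0086 with limma-voom, all on the log2 scale. Across the settings that leave libraries out, the log2 values in mTEChi were -0.14 to 0.12 for Flg2, -0.17 to 0.32 for Krtdap, -0.20 to 0.37 for Lor and -0.058 to 0.25 for Sbsn. In mTEClo they were -0.17 to 0.030 for Ivl, -0.44 to 0.035 for Sbsn, -0.24 to 0.34 for Sprr1a, -0.22 to 0.42 for Sprr1b and -1.20 to 0.32 for Sprr2i. For the difference between genotype effects they were -0.60 to 0.15 for Sprr2a1, -0.58 to 0.15 for Sprr2a2 and -0.66 to 0.025 for Sprr2a3. Depth limits the Lce genes in mTEClo, where single fragments set the levels.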
